A study of Mus musculus with 17 samples.

Results

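The transcripts of the Nr4a orphan nuclear receptors Nr4a1, Nr4a2 and Nr4a3 were followed in sorted mouse haematopoietic stem cells (HSCs). These 3 genes were taken by their GRCm38 symbols from the 54838 Ensembl genes counted in each library. Their levels across the sample groups were known when they were chosen, so those levels are given as a description and without a test. RNA was sequenced in bulk from C57BL/6 Jrj mice in 17 libraries of 4 groups. The old Mito-Q group (n = 5) held HSCs of mice over 18 months old that had 5 daily intraperitoneal injections of the mitochondrial antioxidant Mito-Q at 2 mg/kg. The young CCCP group (n = 5) held HSCs of mice 8 to 12 weeks old that had 1 intraperitoneal injection of CCCP, a protonophore that uncouples mitochondria, at 0.3 mg/kg. Old control (n = 3) and young control (n = 4) HSCs came from mice of the same ages, and the labels do not state whether these mice had a vehicle injection. Marrow was enriched for c-kit, and CD150+ CD48- cells of the Lin- Sca1+ Ckit+ fraction were sorted. The interval between the last injection and harvest is not in the labels, nor is whether a library equals a mouse, so p-values measure the spread between libraries.

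NR4A proteins are transcription factors of the nuclear receptor superfamily with no established hormone ligand, and their activity is set largely by how much of them is made. Their genes are immediate early genes, switched on within a short time by cyclic AMP and CREB, by calcium through MEF2 and NFAT, and by MAP kinases, with no need for new protein. The proteins bind the NBRE element as monomers, and Nr4a1 and Nr4a2 can also pair with retinoid X receptors. In mice, Nr4a1 and Nr4a3 together restrain HSC proliferation and their joint loss leads to myeloid leukaemia, and Nr4a2 has been linked to HSC quiescence. Nr4a1 is also needed for patrolling monocytes, so markers of those cells were read beside it.

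Nr4a1 (ENSMUSG00000023034) lies on the plus strand at chr15:101254269-101274795, Nr4a2 (ENSMUSG00000026826) on the minus strand at chr2:57106830-57124003, and Nr4a3 (ENSMUSG00000028341) on the plus strand at chr4:48045153-48086447, all in GRCm38 with GENCODE M21. No other annotated gene overlaps any of them, so their reads have no annotated neighbour to share with. The stretches before their RefSeq starts (GRCm38.p6) are shown because all 3 genes were high and low in the same groups and cyclic AMP signalling is a known input to them. In each, read 5′ to 3′ on the strand of the gene, capitals mark the CRE half-site, TGACG or its reverse complement CGTCA, the core of the element that CREB binds. The Nr4a1 window, chr15:101266596-101266845, sits in the first intron of the longest annotated transcript, and the Nr4a2 window is chr2:57124004-57124253. Of the Nr4a3 window, chr4:48045055-48045304, the printed stretch is chr4:48045055-48045164. The GENCODE gene begins at position 48045153, before the RefSeq start, so the last half-site printed lies within the annotated gene and the other 3 before it.
Nr4a1: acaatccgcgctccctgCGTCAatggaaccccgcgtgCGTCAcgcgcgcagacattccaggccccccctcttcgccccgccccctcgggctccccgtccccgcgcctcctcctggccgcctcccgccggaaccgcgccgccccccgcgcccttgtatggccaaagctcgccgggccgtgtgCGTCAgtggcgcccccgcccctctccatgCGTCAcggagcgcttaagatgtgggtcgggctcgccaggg
Nr4a2: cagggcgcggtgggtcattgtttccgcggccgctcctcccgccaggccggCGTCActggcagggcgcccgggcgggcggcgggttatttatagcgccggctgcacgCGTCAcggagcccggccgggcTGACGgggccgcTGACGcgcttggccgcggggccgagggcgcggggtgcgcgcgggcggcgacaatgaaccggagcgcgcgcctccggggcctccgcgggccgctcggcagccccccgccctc
Nr4a3: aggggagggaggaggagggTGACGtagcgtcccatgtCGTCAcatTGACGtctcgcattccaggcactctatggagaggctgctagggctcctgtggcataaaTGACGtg

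Each of the 3 windows of 250 bases held 4 CRE half-sites. Among 32851 RefSeq promoters of the same length, 17.8% held at least 1 half-site on either strand and 0.137% held at least 4. Among the 18569 promoters of genes tested here, at least 4 half-sites were present in 0.221%. In Nr4a1 the half-sites began 233, 213, 69 and 40 bases before the start, all on the opposite strand. Those of Nr4a2 began 200, 144, 123 and 111 bases before the start, and those of Nr4a3 231, 213, 205 and 147 bases before it, with both strands used in each. The palindromic full CRE, TGACGTCA, which would itself count as a pair of overlapping half-sites, was in none of the windows and in 1.55% of all promoters. The NBRE, AAAGGTCA, the element bound by the NR4A proteins themselves, was also in none of them and in 1.34% of all promoters. A CArG box, the site of serum response factor, was in none of them and in 1.47% of all promoters. The windows were 74.4%, 80.0% and 63.6% G and C for Nr4a1, Nr4a2 and Nr4a3, against a median of 52.4% over all promoters. These matches describe letters in a window, and binding was not measured.

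**Figure D1:**
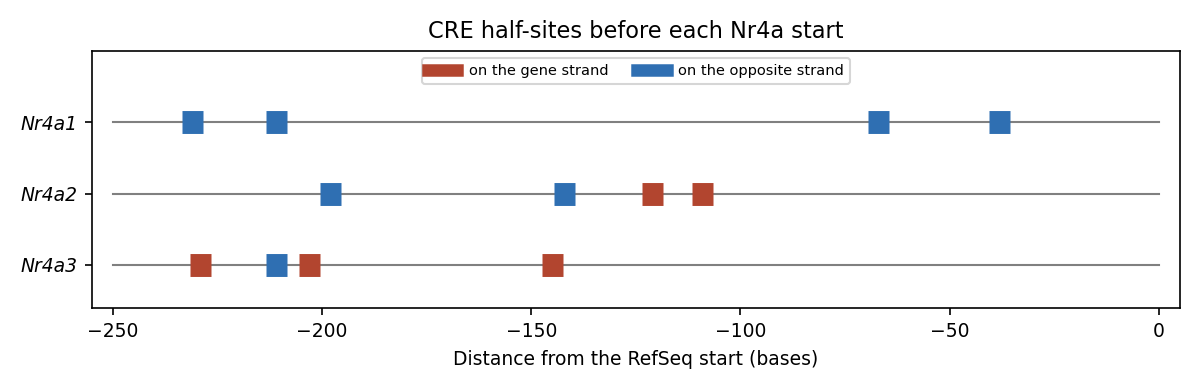
Positions of CRE half-sites in the 250 bases before each RefSeq start, in bases from the start, coloured by strand. Each gene has 4, and those of Nr4a1 are all on the opposite strand.

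Levels are given as read counts scaled to library size (CPM), with trimmed-mean (TMM) factors between libraries. Nr4a1, the most abundant member, stood at 2579, 2327, 1986, 2112 and 2648 CPM in the 5 old Mito-Q libraries, against 3.97, 7.60 and 16.8 CPM in the 3 old control libraries. The 5 young CCCP libraries had 2.65, 22.2, 18.3, 10.6 and 13.9 CPM, against 3035, 2763, 909 and 3672 CPM in the 4 young control libraries. The libraries therefore fell into a high pair of groups, old Mito-Q and young control, and a low pair, young CCCP and old control, with no library between 22.2 and 909 CPM. Within each pair the ranges overlapped. Nr4a1 averaged 2330.1 ± 287 CPM in old Mito-Q, 13.6 ± 7.52 in young CCCP, 9.44 ± 6.59 in old control and 2595 ± 1187 in young control (SD). In reads, the low groups rested on 27 to 165 and 34 to 95 reads per library, against 12204 to 18429 in old Mito-Q and 4187 to 27869 in young control. In bulk RNA, fewer cells of a type and less RNA per cell cannot be told apart.

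Scaled by exon length, Nr4a1 was among the most abundant transcripts of the high groups. Ranked by CPM per kb among the 24517 tested genes with an exon length, it held places 39 to 108 in the old Mito-Q libraries and places 14 to 272 in the young control libraries. In the low groups its places were 7451 to 18722 in young CCCP and 8019 to 16883 in old control. Reads of all 3 genes together made up 0.193% to 0.289% of gene reads in old Mito-Q, 0.000924% to 0.00340% in young CCCP, 0.00153% to 0.00221% in old control and 0.0962% to 0.396% in young control.

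Nr4a2 followed the same split at a level lower than Nr4a1 in the high groups. It stood at 323, 217, 183, 198 and 216 CPM in old Mito-Q, against 8.07, 8.93 and 7.41 CPM in old control. In young CCCP it stood at 1.86, 6.60, 6.12, 5.09 and 7.18 CPM, against 129.6, 139, 245 and 147 CPM in young control. The group means were 227 ± 55.3 CPM in old Mito-Q, 5.37 ± 2.11 in young CCCP, 8.14 ± 0.763 in old control and 165 ± 53.7 in young control (SD). Old Mito-Q had the higher mean of the high pair, but its range overlapped that of young control. In the low pair the order was the reverse of that of Nr4a1: the highest young CCCP library, at 7.18 CPM, lay just under the lowest old control library, at 7.41 CPM.

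Nr4a3, the longest and least abundant transcript, stood at 37.9, 16.7, 19.04, 17.7 and 22.6 CPM in old Mito-Q, against 2.81, 0 and 1.06 CPM in old control. In young CCCP it stood at 2.84, 0.135, 13.2, 0.946 and 1.60 CPM, against 23.3, 27.3, 25.8 and 17.5 CPM in young control. Its means were 22.8 ± 8.76 CPM in old Mito-Q, 3.74 ± 5.37 in young CCCP, 1.29 ± 1.42 in old control and 23.5 ± 4.29 in young control (SD), and the groups within each pair overlapped. Old control 2 had 0 Nr4a3 reads, and a count of 0 allows up to 3 reads there, or 0.570 CPM. Young CCCP 3 stood apart in its group, since its 13.2 CPM approached the lowest young control library at 17.5 CPM.

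**Figure D2:**
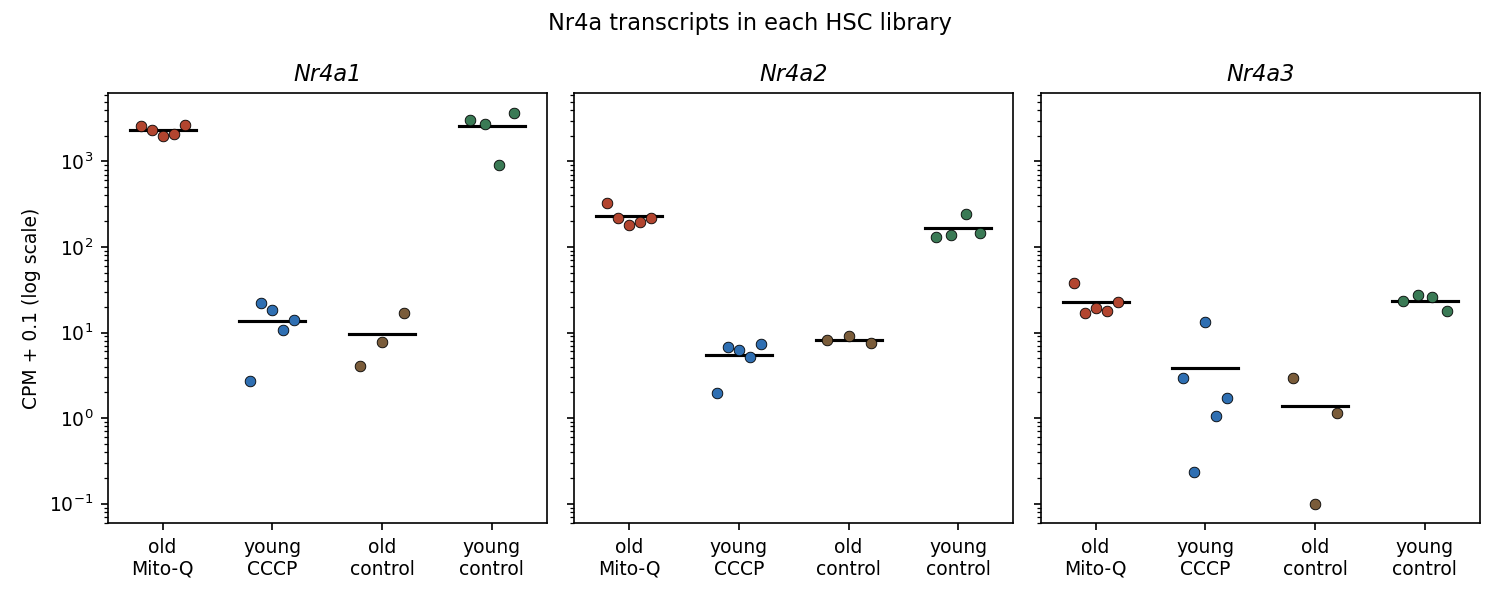
CPM plus 0.1 (log axis) of Nr4a1, Nr4a2 and Nr4a3 in each of the 17 libraries, with points for libraries and bars for group means. The old Mito-Q and young control libraries lie above all young CCCP and old control libraries for each gene, with young control 3 low for Nr4a1 (909 CPM) and young CCCP 3 high for Nr4a3 (13.2 CPM).

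In old Mito-Q against old control, the ratio of mean CPM was 247 for Nr4a1, 27.9 for Nr4a2 and 17.7 for Nr4a3. The fitted log2 fold changes were 7.95 (SE 0.70), 4.80 (SE 0.44) and 4.07 (SE 1.11) in the same order. For all 3 genes the lowest old Mito-Q library was above the highest old control library, as was so for 3.91% of the 24523 tested genes, and nothing is read from this count because the genes were chosen on these levels. Leaving out the old control library with most Nr4a1 reads, old control 3, gave a log2 fold change of 8.68 for Nr4a1. Without old control 1, that of Nr4a3 was 5.30.

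In young CCCP against young control, Nr4a1 was 191-fold lower in mean CPM, Nr4a2 30.7-fold lower and Nr4a3 6.28-fold lower. The log2 fold changes were -7.58 (SE 0.54) for Nr4a1, -4.94 (SE 0.36) for Nr4a2 and -2.65 (SE 0.86) for Nr4a3. All 3 genes had groups that did not overlap, beside 2.92% of tested genes whose CCCP libraries were all lower. Without young CCCP 3 the log2 fold change of Nr4a3 was -4.05, still the smallest of the 3 in size.

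In old control against young control, mean CPM was 275-fold lower for Nr4a1, 20.3-fold lower for Nr4a2 and 18.2-fold lower for Nr4a3. The log2 fold changes were -8.11 (SE 0.71), -4.33 (SE 0.43) and -4.11 (SE 1.13), and the groups were again apart for all 3, beside 6.58% of tested genes. Without old control 3 the log2 fold change of Nr4a1 was -8.84, and without old control 1 that of Nr4a3 was -5.35. This comparison shares its old control libraries with the Mito-Q comparison and its young control libraries with the CCCP comparison, so the values are not separate evidence. Old Mito-Q and young control, compared directly, overlapped for every member, with log2 fold changes of -0.16 (SE 0.42) for Nr4a1, 0.46 (SE 0.32) for Nr4a2 and -0.04 (SE 0.82) for Nr4a3.

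The deposited names carry a letter, A or C, that the labels do not explain: A for all old Mito-Q and old control libraries and for young control 1 and 2, and C for all young CCCP libraries and for young control 3 and 4. Within the libraries named A, Nr4a1 was at 1986 to 2648 CPM in old Mito-Q, 3.97 to 16.8 in old control, and 3035 and 2763 in young control. Within those named C, it was at 2.65 to 22.2 CPM in young CCCP, and 909 and 3672 in young control. Nr4a2 within A was at 183 to 323 CPM in old Mito-Q, 7.41 to 8.93 in old control, and 129.6 and 139 in young control. Within C it was at 1.86 to 7.18 CPM in young CCCP, and 245 and 147 in young control. For Nr4a3 the A libraries had 16.7 to 37.9 CPM in old Mito-Q, at most 2.81 in old control, and 23.3 and 27.3 in young control, and the C libraries had 0.135 to 13.2 in young CCCP, and 25.8 and 17.5 in young control. The split between high and low groups was therefore present within each letter for all 3 genes.

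The members did not move in proportion. Per kb of exon, Nr4a1 was 9.24 to 14.2 times Nr4a2 in old Mito-Q libraries, 1.64 to 3.90 times in young CCCP and 0.570 to 2.62 times in old control. In young control the ratio was 27.1, 23.02, 4.29 and 28.9, so that young control 3 alone lay below the old Mito-Q range. Nr4a1 made up 89.5% to 93.0% of the summed level per kb of the family in old Mito-Q and 44.7% to 79.3% in young CCCP. It made up 31.6% to 70.5% in old control and 80.0% to 96.4% in young control. In old control 1, Nr4a1 was 26.8% of 127 family reads (exact 95% interval 19.3% to 35.4%), and Nr4a2 was the most abundant member per kb there, at 55.4% of the family. Intervals cover counting error only. The group medians of the Nr4a1 share per kb were 92.2% in old Mito-Q, 66.0% in young CCCP, 49.6% in old control and 95.7% in young control.

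Among the libraries of the high groups, young control 3 was the one in which the members parted most clearly. Its Nr4a1 level was 3.47-fold below the mean of the other young control libraries, while its Nr4a2 level was 1.77-fold above theirs and its Nr4a3 level 1.14-fold above. This library also had the fewest gene reads, 5649611. It stood apart over all genes as well, so its departure was not confined to the Nr4a genes. Against young control 1, 2 and 4 its chi-square per degree of freedom over genes was 160, 128 and 166. Among the other young controls that value was 20.9 to 24.9. The part of this departure in the Nr4a levels was not tested. In old Mito-Q 1 all 3 members were at or near the top of their group, with 1.14, 1.59 and 2.00 times the mean of the other 4 libraries for Nr4a1, Nr4a2 and Nr4a3.

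**Figure D3:**
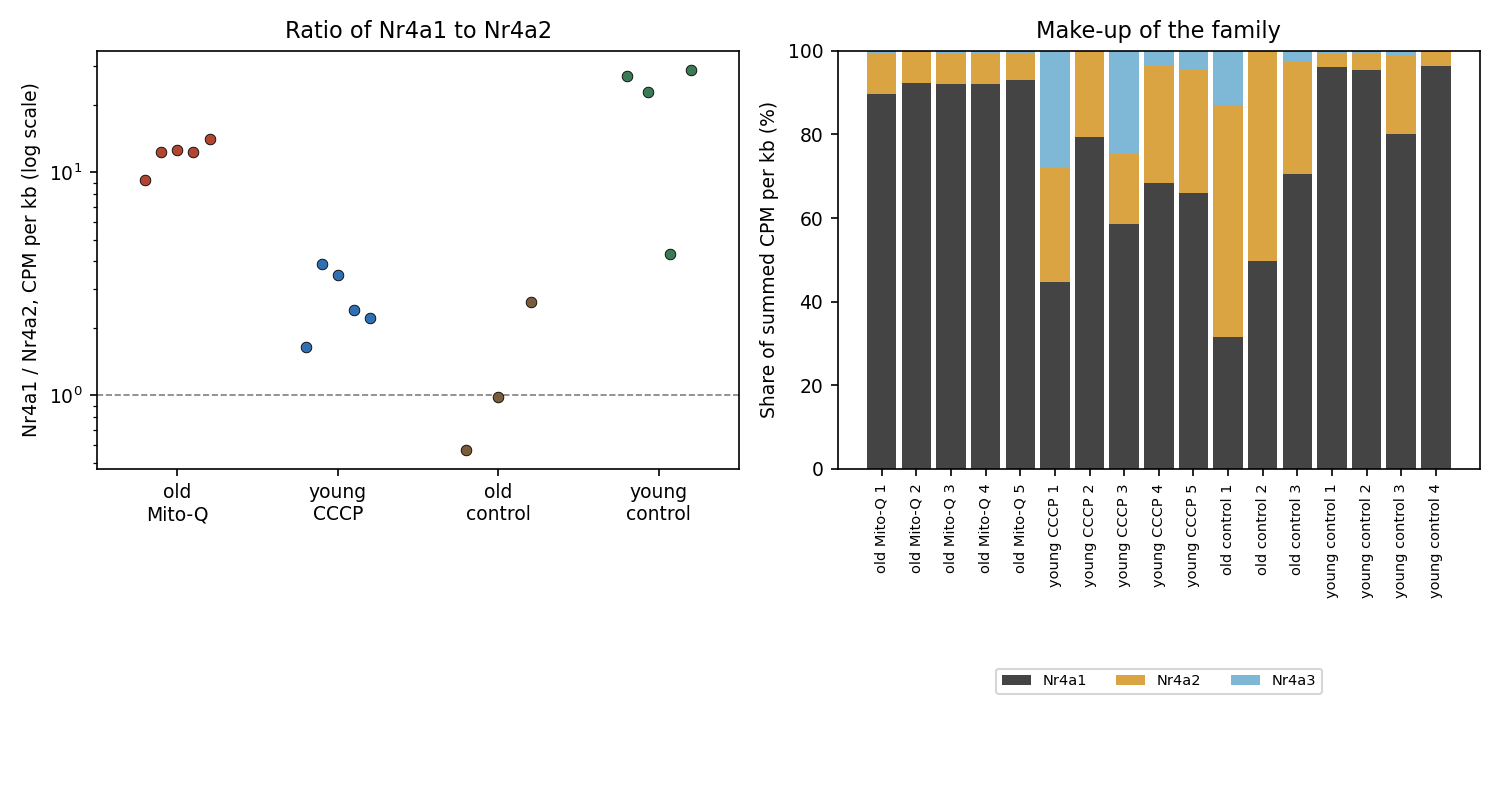
Left, ratio of Nr4a1 to Nr4a2 in CPM per kb (log axis) by group, a point per library, with the dashed line at equal levels. Right, share of Nr4a1, Nr4a2 and Nr4a3 in their summed CPM per kb (%) in each library; Nr4a1 holds 89.5% to 93.0% in old Mito-Q and 31.6% to 70.5% in old control.

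Gene reads ran from 5649611 to 8120443 per library, and 20.1% to 65.5% of reads were set aside in the files as lying in no gene. In the low groups the 3 libraries with the highest share in no gene also had the most Nr4a3: young CCCP 3 had 65.5% and 13.2 CPM, young CCCP 1 had 53.3% and 2.84 CPM, and old control 1 had 62.4% and 2.81 CPM. The other 5, with 20.1% to 41.6% in no gene, had at most 1.60 CPM and did not follow the order of that share. Its part in these levels was not tested. The HSC gate genes Kit, Ly6a and Slamf1 were present in every library, summing to 1150.2 to 1529 CPM in old Mito-Q, 719.8 to 2015 in young CCCP, 1043 to 1379 in old control and 1092 to 1656 in young control. The 7 genes of cells gated out summed to at most 31.9 CPM in old Mito-Q, 66.7 in young CCCP, 12.0 in old control and 16.2 in young control, with Cd8a at 0 in old Mito-Q and old control. Their median sums were 24.3, 45.5, 1.41 and 9.38 CPM in the same order of groups.

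Patrolling monocyte markers were detected for 8 of 8 genes in old Mito-Q, young CCCP and young control and for 7 of 8 in old control, where Cd300e was at 0. They summed to 138 to 228 CPM in old Mito-Q, 133 to 233 in young CCCP, 132 to 320.0 in old control and 91.6 to 184 in young control, and thus overlapped between all groups. Most of each sum was Spn, a sialoglycoprotein gene of many blood cells, at 165 ± 45.8 CPM in old Mito-Q, 142 ± 36.1 in young CCCP, 231 ± 102 in old control and 130 ± 31.2 in young control (SD). The next markers, Adgre4 and Csf1r, averaged between 1.73 and 5.72 CPM in each group. The 9 neutrophil genes, all detected in each group, summed to 983 to 13561 CPM in old Mito-Q, against 1055 to 2328 in old control. They summed to 731 to 15573 CPM in young CCCP, against 425 to 2096 in young control. The highest neutrophil sums were thus in the treated groups, though each treated range overlapped that of its control. Median neutrophil sums were 5423 CPM in old Mito-Q against 2308 in old control, and 9085 in young CCCP against 507 in young control. The 5 classical monocyte genes had median sums of 138 CPM in old Mito-Q, 212 in young CCCP, 39.4 in old control and 25.8 in young control. Whether neutrophil or monocyte transcripts bear on the Nr4a levels was not tested.

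The next genes on the chromosome did not pass the test in any comparison. Grasp, 21513 bases from Nr4a1, averaged 13.2 CPM in old Mito-Q, 9.33 in young CCCP, 11.8 in old control and 23.01 in young control. Atg101, an autophagy gene 9477 bases from Nr4a1 on the other side, averaged 102 CPM in old Mito-Q, 50.5 in young CCCP, 83.3 in old control and 77.8 in young control. Gpd2 beside Nr4a2, and Sec61b and Stx17 beside Nr4a3, also missed the threshold in all 4 comparisons, and Kcnj3 had too few reads to test. The lowest adjusted p among them was 0.398, for Atg101 in young CCCP against young control (edgeR quasi-likelihood test, Benjamini-Hochberg).

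For each member, the 5 genes of most like pattern were taken as those with the smallest root mean square difference of log2 CPM over the 17 libraries, each gene centred on its own mean, among 16792 named genes. For Nr4a1 these were Klf2 (difference 1.13), Fos (1.28), Klf4 (1.34), Atf3 (1.38) and Cdkn1a (1.5), against a median of 4.15 over all candidates. Klf2 and Klf4 are zinc-finger factors, Fos an AP-1 subunit, Atf3 a stress-induced factor and Cdkn1a the p21 inhibitor of cyclin-dependent kinases. Klf2 averaged 449 CPM in old Mito-Q, 4.63 in young CCCP, 4.88 in old control and 289.5 in young control. It shared the low value of young control 3, at 136 CPM, and Fos and Atf3 were also lowest of the young controls there, at 1433 and 89.0 CPM. Klf4 was instead highest of the young controls there, at 190 CPM, and Cdkn1a was neither highest nor lowest.

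For Nr4a2 the list was Egr1 (0.66), Hes1 (0.66), Nfkbiz (0.69), Cdkn1a (0.75) and Bhlhe40 (0.77), against a median of 2.77. Egr1 is an immediate early zinc-finger factor, Hes1 a repressor downstream of Notch, Nfkbiz an atypical inhibitor of NF-kB and Bhlhe40 a repressor tied to the clock. Hes1 averaged 164 CPM in old Mito-Q, 3.27 in young CCCP, 8.50 in old control and 151 in young control, and like Nr4a2 it was highest of the young controls in young control 3, at 271 CPM. Egr1 and Bhlhe40 went the other way and were lowest of the young controls there, at 827 and 171 CPM. Nfkbiz and Cdkn1a were neither highest nor lowest there.

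For Nr4a3 the list was Sik1 (0.74), Per1 (0.99), Fosl2 (1.01), Bhlhe40 (1.04) and Nfkbid (1.05), against a median of 2.47. Sik1 is a salt-inducible kinase that acts on the CRTC co-activators of CREB, Per1 a clock component, Fosl2 an AP-1 subunit and Nfkbid a nuclear regulator of NF-kB. Per1 averaged 185 CPM in old Mito-Q, 44.6 in young CCCP, 11.9 in old control and 189 in young control. Of the members themselves, Nr4a2 and Nr4a3 differed by 1.47, Nr4a1 and Nr4a2 by 1.66 and Nr4a1 and Nr4a3 by 2.49, so each member had at least 5 genes closer to it than either relative. Of the 13 like genes, 8 had a promoter in the RefSeq table, 6 of those held at least 1 CRE half-site in any window and 0 held 4. Of single promoters of tested genes, 22.3% held at least 1. The bases differ, since Cdkn1a, Per1 and Nfkbid each had more than 1 window, and Nfkbid held half-sites in only 1 of its windows.

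**Figure D4:**
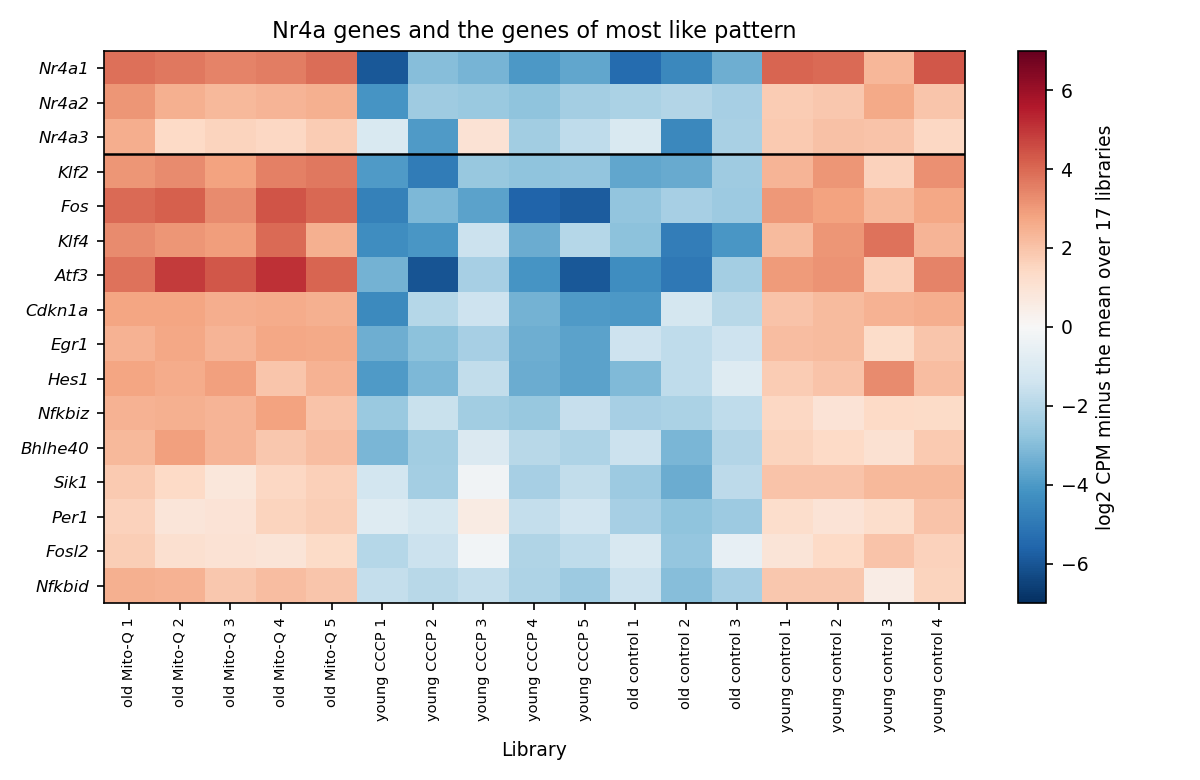
Log2 CPM minus each gene's mean over the 17 libraries (colour) for the 3 members, above the line, and the 13 genes of most like pattern, below it, with libraries in columns. Old Mito-Q and young control columns are above the mean and young CCCP and old control columns mostly below. Among the young controls, young control 3 is paler for, among others, Nr4a1, Klf2, Atf3, Egr1 and Nfkbid. It is darker for, among others, Nr4a2, Klf4, Hes1 and Fosl2.

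Genes that act on, with or under NR4A were taken as lists of 62 upstream signalling genes, 29 partners and co-regulators and 37 genes reported as NR4A-regulated in other cells and species. They were tested in the fit across all 24523 genes, at an adjusted p below 0.05, beside the share of all tested genes that passed in each direction. These lists and the nuclear receptor list below were chosen with earlier results of these data known. Counts of calls beside those shares are therefore a description. Sik1 and Cdkn1a are also among the like genes above, so their calls are not separate from that likeness. In old Mito-Q against old control 0.526% of all tested genes rose and 0.0163% fell, in young CCCP against young control 0.0652% rose and 0.652% fell, and in old control against young control 0.522% rose and 1.17% fell. Of the 62 upstream genes, all tested, 3 rose in old Mito-Q against old control (Sik1, Pde4b and Nfatc2) and 0 fell. In young CCCP against young control 3 fell (Sik1, Pde4b and Mef2c) and 0 rose. In old control against young control 3 fell (Sik1, Pde4b and Nfatc2) and 0 rose. The median log2 fold change of the 62 genes was 0.42 in old Mito-Q against old control, where that of all tested genes was -0.12. It was -0.15 in young CCCP against young control (all genes 0.21) and -0.53 in old control against young control (all genes 0.16).

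Sik1 (chr17:31844250-31855804) had 183, 133, 87.7, 137 and 161 CPM in old Mito-Q, against 8.30, 4.18 and 13.9 CPM in old control. In young CCCP it had 20.7, 9.30, 43.0, 9.94 and 15.2 CPM, against 205, 202, 242 and 247 CPM in young control. It followed the high and low groups of the Nr4a genes without overlap, and young CCCP 3 was again the highest of its group. It rose in old Mito-Q against old control (log2 fold change 3.99, SE 0.51, edgeR adjusted p = 3.03e-05). It fell in young CCCP against young control (-3.51, SE 0.41, edgeR adjusted p = 3.64e-06) and in old control against young control (-4.66, SE 0.54, edgeR adjusted p = 7.82e-06).

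Pde4b (chr4:102087543-102607259), a phosphodiesterase that breaks down cyclic AMP, had 690.4, 686, 766, 640.1 and 586 CPM in old Mito-Q, against 158, 254 and 196 CPM in old control. Young CCCP libraries had 183, 168, 157, 192 and 169 CPM, against 824, 929, 615 and 1102 CPM in young control. The groups again did not overlap, and the fold changes were smaller than for Sik1. Pde4b rose in old Mito-Q against old control (log2 fold change 1.73, SE 0.27, edgeR adjusted p = 0.000494). In young CCCP it fell by 2.31 on the log2 scale (SE 0.24, edgeR adjusted p = 4.20e-07), and in old control against young control by 2.10 (SE 0.28, edgeR adjusted p = 5.85e-05). Of the 14 cyclic AMP and PKA genes, no other passed the edgeR test in any comparison. DESeq2 called 2 of the 14 in young CCCP against young control and 2 in old control against young control. Of all 24523 tested genes it called 556 and 1260 in these comparisons. Creb1, which encodes the factor that binds the CRE, averaged 80.2 CPM in old Mito-Q, 101 in young CCCP, 54.3 in old control and 84.5 in young control.

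The other upstream calls depended on single libraries. Nfatc2, a calcineurin-driven transcription factor, averaged 89.1 ± 18.6 CPM in old Mito-Q, 42.5 ± 16.3 in young CCCP, 25.7 ± 7.93 in old control and 86.4 ± 32.8 in young control (SD). It rose in old Mito-Q against old control (log2 fold change 1.79, edgeR adjusted p = 0.0325), a call lost without any 1 of the old controls or without old Mito-Q 1, 2 or 5. It fell in old control against young control (-1.74, edgeR adjusted p = 0.0248), a call lost without any 1 of the old controls or without young control 4. Mef2c, a calcium-responsive factor, fell in young CCCP, at 228 ± 50.4 CPM, against 486 ± 161 CPM in young control (SD; -1.09, edgeR adjusted p = 0.0343). This call was lost without young CCCP 1, 3, 4 or 5 or without young control 1 or 3.

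Of the 29 partners and co-regulators, 28 were tested. In old Mito-Q against old control Rnf4 alone rose and 0 fell, in young CCCP against young control 0 passed, and in old control against young control Rnf4 alone fell. In that CCCP comparison 2 of the 28 had an unadjusted edgeR p below 0.05 and DESeq2 called 0. Of all 24523 tested genes, 2735 had such a p and DESeq2 called 556. Rnf4, a ubiquitin ligase that recognises SUMO chains, had 294 to 489 CPM in old Mito-Q, against 124 to 176 CPM in old control and 308 to 548 CPM in young control. Its log2 fold change was 1.37 (SE 0.28, edgeR adjusted p = 0.0121) in old Mito-Q against old control, a call lost without any 1 of the old controls. In old control against young control it was -1.52 (SE 0.29, edgeR adjusted p = 0.00422), a call lost without old control 2. The retinoid X receptors did not pass in any comparison, and Rxra averaged 7.07 CPM in old Mito-Q, 13.3 in young CCCP, 9.44 in old control and 13.5 in young control.

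Of the 37 genes reported as NR4A-regulated, 32 were tested, and those that passed did not share a direction. In old Mito-Q against old control Cdkn1a rose, and in young CCCP against young control Cdkn1a and Nfkbia fell. In old control against young control Cdkn1a and Spp1 fell, and Batf and Aldh1a1 rose. The median log2 fold change of the list was 0.09 in old Mito-Q against old control, 0.12 in young CCCP against young control and 0.17 in old control against young control, beside -0.12, 0.21 and 0.16 over all tested genes. The endocrine target Pomc was near the detection limit, at 3.81 CPM in old Mito-Q, 1.90 in young CCCP, 6.66 in old control and 3.74 in young control.

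Cdkn1a (chr17:29090976-29100727) had 504, 509.7, 430.3, 452 and 419.6 CPM in old Mito-Q, against 4.21, 31.5 and 19.1 CPM in old control. In young CCCP it had 3.14, 18.5, 26.6, 7.33 and 4.47 CPM, against 299, 339, 397 and 427 CPM in young control. No library lay between 31.5 and 299 CPM, and young control 3, low for Nr4a1, was not low here. Its log2 fold change was 4.67 (SE 0.64, edgeR adjusted p = 8.10e-05) in old Mito-Q against old control. It was -4.93 (SE 0.53, edgeR adjusted p = 1.01e-06) in young CCCP against young control and -4.33 (SE 0.64, edgeR adjusted p = 0.000202) in old control against young control.

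Nfkbia, the inhibitor of NF-kB, fell in young CCCP, at 139.9 to 204 CPM, against 295 to 614 CPM in young control (log2 fold change -1.43, edgeR adjusted p = 0.0181). That call was lost without young CCCP 1 or 5 or without young control 2 or 4, and in old Mito-Q, at 329 to 676 CPM, against 241 to 776 CPM in old control, the groups overlapped. Batf, an AP-1 family factor, rose in old control, at 60.9 to 173 CPM, against 30.4 to 42.5 CPM in young control (1.87, edgeR adjusted p = 0.00534), a call lost without old control 2 or 3. Spp1, which encodes osteopontin, fell in old control, at 0.468 to 1.41 CPM, against 8.96 to 30.9 CPM in young control (-4.39, edgeR adjusted p = 0.0372). This call was lost without any 1 of the old controls or without young control 1 or 2.

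Aldh1a1, a retinaldehyde dehydrogenase, was high in both old groups, with 273 to 344 CPM in old Mito-Q, 48.3 to 116 in young CCCP, 171 to 308 in old control and 71.4 to 140.2 in young control. It rose in old control against young control (log2 fold change 1.35, edgeR adjusted p = 0.0289), a call lost without old control 2 or 3 or without young control 1, 3 or 4. It was the only gene of the 3 lists to pass in old Mito-Q against young control (1.63, edgeR adjusted p = 0.0128), where 0.13% of all tested genes rose and 0.0122% fell, and that call was lost without young control 1, 3 or 4.

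The rest of the nuclear receptor superfamily was set beside Nr4a as a list of 46 genes, of which 41 were tested. Nr1d2, the clock repressor REV-ERB beta, was the only one to pass the edgeR test. It had 55.7, 56.1, 77.9, 33.6 and 65.0 CPM in old Mito-Q, against 18.9, 11.6 and 22.9 CPM in old control. In young CCCP it had 66.8, 75.3, 35.4, 46.0 and 87.7 CPM, against 70.3, 72.8, 99.8 and 88.2 CPM in young control. It was lowest in old control, and young CCCP overlapped young control.

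Nr1d2 (chr14:18204054-18239127) rose in old Mito-Q against old control (log2 fold change 1.69, SE 0.39, edgeR adjusted p = 0.0399). That call was lost without any 1 of the old controls or without old Mito-Q 1, 2, 3 or 5. It fell in old control against young control (-2.21, SE 0.41, edgeR adjusted p = 0.00300), a call lost without old control 2, and in young CCCP against young control its log2 fold change was -0.41 (edgeR adjusted p = 0.71). The other tested receptors did not pass the edgeR test in any comparison. DESeq2 called 2 of the 41 in old control against young control, 1 in old Mito-Q against old control and 1 in old Mito-Q against young control. Of all 24523 tested genes it called 1260, 442 and 182 in the same order. In young CCCP against young control 0 of the 41 were called by edgeR, with 1 at an unadjusted p below 0.05 and 0 called by DESeq2. Of all 24523 tested genes, 2735 had such a p and DESeq2 called 556. The glucocorticoid receptor Nr3c1, the most abundant of them in young control, averaged 99.7 CPM in old Mito-Q, 98.1 in young CCCP, 65.4 in old control and 128 in young control. The list's median log2 fold change was 0.00 in old Mito-Q against old control (all tested genes -0.12), 0.21 in young CCCP against young control (0.21), -0.33 in old control against young control (0.16) and -0.36 in old Mito-Q against young control (0.01). Of the 41, 24 were below 0 in old control against young control and 26 in old Mito-Q against young control. Of all tested genes, 44.4% and 49.5% were below 0 in the same order.

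**Figure D5:**
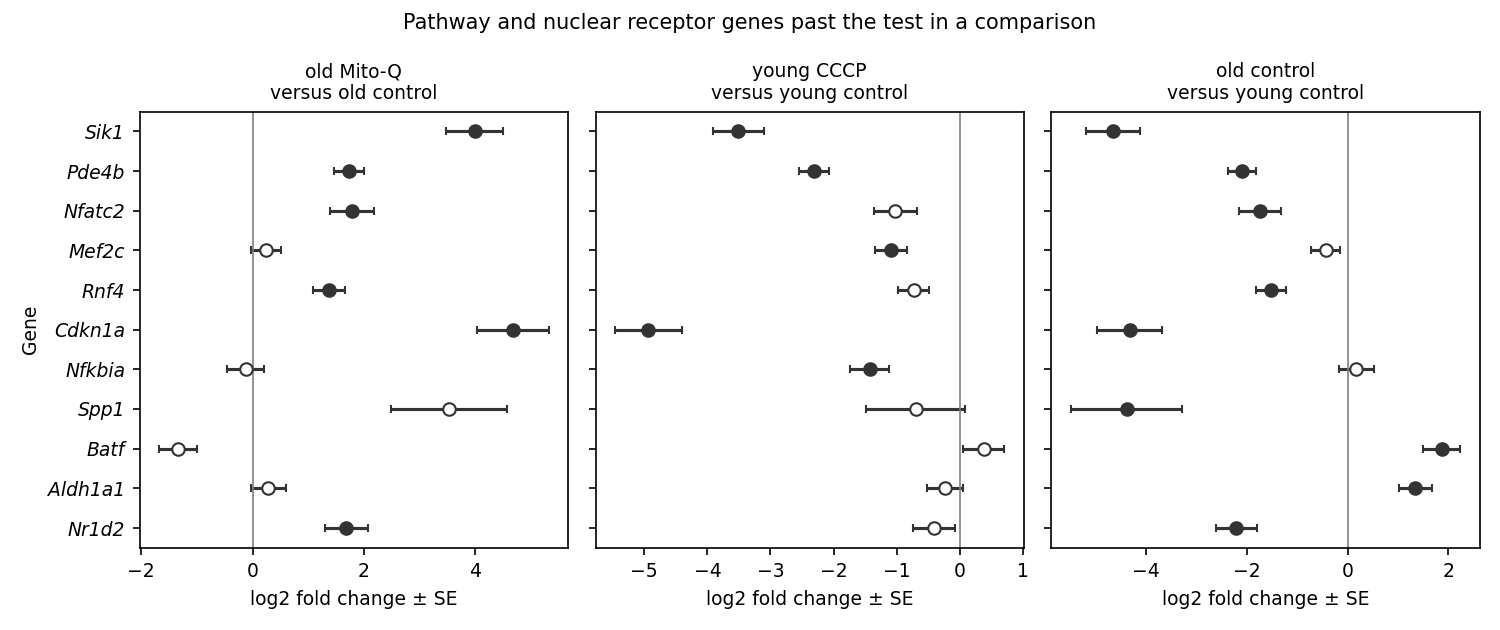
Log2 fold change ± SE for the 11 pathway and nuclear receptor genes that passed in at least 1 of the 3 comparisons, filled where the edgeR adjusted p was below 0.05 and open where not. Sik1, Pde4b and Cdkn1a are filled in each panel, at 3.99, 1.73 and 4.67 in old Mito-Q versus old control.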

How the data were processed

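Libraries were made from sorted HSC RNA with Nextera XT at reduced volume, per the labels. Per the submitters' processing notes, reads were trimmed with Trim Galore and aligned with STAR 2.7 to GRCm38. The authors deposited raw read counts per Ensembl gene. How genes were counted, with which annotation and strand setting, and how duplicates were handled is not given in the sources used here. The 5 footer entries of each file (such as reads in no gene) were kept out of library sizes and tests. GENCODE M21 matched 54809 of 54838 IDs.

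The counts were fitted with edgeR 4.0.16 in R 4.3.3 (quasi-likelihood F-test, two-sided, TMM factors, a minimum count of 10 in the group-wise filter, robust), with all 17 libraries sharing 1 spread. P-values were Benjamini-Hochberg adjusted over 24523 genes, with calls below 0.05. CPM used whole gene totals times TMM factors, CPM per kb the union exon length, and log2 CPM a prior count of 2. A count of 3 reads was the floor for a count of 0. The fit was checked on simulated counts with known changes. No 2 libraries of a group agreed within sampling noise: over 29 pairs, the chi-square per degree of freedom was at least 20.9 (genes with 20 or more reads in the pair).

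The 3 members and the gene lists were chosen with earlier results of these data known, and the members received no test between groups. A gene of the upstream list is not reported here. Genes named besides them were the 5 of most like pattern per member, up to 4 called genes of smallest p per list and comparison, the nearest protein-coding neighbours, and cell type markers. Creb1, Rxra, Pomc and Nr3c1 were named after their values were seen. Alternatives were other scalings, filters, DESeq2 1.42.0, fits of the 2 groups only, a replicate block, the letter as a covariate, and leaving out libraries. Sequences came from RefSeq (GRCm38.p6), where all 3 members matched. No protein sequence was used here.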

Additional observations from a re-analysis of the deposited data

Results flagged for a closer look

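The largest or smallest library of a group of 4 or 5 was set against Dixon's 95% limit for each member and group, which chance exceeds in about 1 in 20 groups. The limit served only to pick values to list. In all, 4 values were past it, and nothing is read from that count. Nr4a2 was at 323 CPM in old Mito-Q 1, where the other old Mito-Q libraries had 183 to 217 CPM. Nr4a3 was also highest in that library, at 37.9 CPM, where the others had 16.7 to 22.6 CPM. Nr4a2 was at 245 CPM in young control 3, where the others had 129.6 to 147 CPM, and Nr4a1 was lowest there. Nr4a3 was at 13.2 CPM in young CCCP 3, where the others had 0.135 to 2.84 CPM, and the share of reads in no gene was highest there, at 65.5%. The part of depth or of reads in no gene in these values was not tested.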

How the results depend on the processing

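The called genes kept their direction under every alternative run. Sik1, Pde4b and Cdkn1a also stayed called under every alternative in the 3 comparisons in which they passed. With the letter as a covariate, Nfatc2, Spp1, Batf and Aldh1a1 were no longer called in old control against young control, nor Nfkbia in young CCCP against young control. Under alternatives other than leaving out single libraries, the log2 fold changes of Nr4a1 and Nr4a2 stayed within 1 SE of those given above. Those of Nr4a3 moved by more than 1 SE in the 3 comparisons other than old Mito-Q against young control. They reached 5.33 in old Mito-Q against old control and -5.33 in old control against young control. Without young CCCP 3, young control 3 and old control 1 together, the log2 fold change of Nr4a3 in young CCCP against young control was -4.0. Leaving out 1 library at a time, it ran from -4.05 to -2.38, and that of Nr4a1 in old Mito-Q against old control from 7.52 to 8.68. In the same comparison Nr4a3 ran from 3.58 to 5.30. Nr4a3 ran from -5.35 to -3.62 and Nr4a1 from -8.84 to -7.68 in old control against young control.

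Of the 122 tested genes on the 3 pathway lists, 5 were called in old Mito-Q against old control and 5 in young CCCP against young control. In old control against young control 8 were called, and in old Mito-Q against young control 1. Without the 3 libraries named above, 9 were called in old Mito-Q against old control and 28 in old control against young control. In old control against young control a fit of only the 2 groups compared called 5. DESeq2 called 15 there, beside 1260 of all 24523 tested genes, where edgeR called 128 higher and 287 lower. Calls over all genes were not counted under the other alternatives. With the letter as a covariate, 4 pathway genes were called in old control against young control and 0 in old Mito-Q against young control. Leaving out single libraries gave 3 to 5, 3 to 5, 3 to 10 and 0 to 1 calls in the same order of comparisons. The fewest came without old control 2 (3 and 3 calls where old control was used) or old control 3 (3 and 4), without young CCCP 1 or 5, and without young control 1, 3 or 4 in the last comparison.

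Of the other nuclear receptors, 1 was called in old Mito-Q against old control. The count was 0 with upper-quartile factors, library totals, no filter on low counts or only the 2 groups compared, 2 without the 3 libraries, and 0 to 1 leaving out single libraries. In old control against young control it was 1, with 2 under no filter, 2 under DESeq2, 3 without the 3 libraries and 0 to 1 leaving out single libraries. In old Mito-Q against young control it was 0, with 1 under no filter, DESeq2 or without the 3 libraries. The cause of these moves was not tested.

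Replicate numbers were also used as a block. Deviations of same-numbered libraries correlated between -0.11 and 0.12, so the numbers did not pair the libraries. The replicate block gave 4, 4, 8 and 1 pathway calls in the order above, and 0, 0, 1 and 0 calls among the other nuclear receptors. With it the log2 fold change of Nr4a3 was 4.84 in old Mito-Q against old control, -3.45 in young CCCP against young control and -4.99 in old control against young control.

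Depth limits Nr4a3 most: in the low groups it rested on 0 to 69 reads per library.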
